A study of Homo sapiens with 12 samples.

Results

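Messenger RNA levels of genes for homologous recombination, the Fanconi anaemia pathway, the DNA damage checkpoint and mismatch repair were examined in WM35, a human melanoma cell line. The list held 43 genes chosen by symbol, and 32 of them, out of 12131 genes in all, had a named probe that was detected (detection p under 0.05) on 2 or more arrays. These comprised 12 of 17 recombination genes, 7 of 11 Fanconi genes, 10 of 12 checkpoint genes and 3 of 3 mismatch repair genes. Of the other 11, BRCA2, BRIP1, XRCC2, RBBP8, FANCA, FANCD2, FANCF and RAD1 had no probe under that symbol in the annotation used here and were not analysed. RAD50 and FANCM were detected on 0 arrays, and ATM on 1 array was just outside the detection rule. The members nearest to the rule from inside were HUS1 on 10 arrays and CLSPN on 11, and the other 30 genes were detected on all 12 arrays.

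The cells received lactimidomycin (LTM), a glutarimide-containing inhibitor of translation elongation, or trifluridine (trifluorothymidine, TFT), a thymidine analogue that inhibits thymidylate synthase and is built into DNA. There were 2 arrays of LTM for 24 h, 3 of LTM for 8 h, 2 of TFT for 24 h, 3 of TFT for 8 h and 2 of cells given the vehicle DMSO, whose labels name no time, so that both times share the same controls. Each drug was dosed at the concentration that inhibits by 75%, as found earlier at 72 h. Signatures of both drugs were made in order to test them against the outcome of melanoma patients. WM35 is 1 cell line, and nothing in the labels tells whether replicate arrays stem from different dishes, so each p-value rests on a spread between arrays that may be technical.

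Homologous recombination copies an intact sister chromatid to mend a double-strand break: BRCA1 with BARD1 and PALB2 prepares the broken ends, and RAD54 motor proteins drive strand exchange. The Fanconi pathway detects crosslinks between DNA strands and attaches ubiquitin to FANCI and FANCD2 through the ligase FANCL and the conjugating enzyme UBE2T. The checkpoint kinases ATR and ATM and their effectors CHEK1, CHEK2 and WEE1 hold the cell cycle while damage persists, and mismatch repair proteins of the MSH and PMS families correct copying errors. Many of these genes are transcribed mainly in cycling cells.

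The promoters of 1 gene of each subfamily are shown because these genes were among those that moved furthest after 24 h of LTM, RAD54L, UBE2T and RAD9A downwards and MSH3 upwards. Each sequence is the 250 bases before the outermost annotated start in RefSeq (GRCh38.p14), read 5′ to 3′ on the strand of the gene. Capitals mark matches on either strand to 3 sets of motifs: the E2F-like heptamers (TTCGCGC or else TTGGCGC or else TTCCCGC), the cell cycle homology region (CHR) as TTTGAA or TTCGAA, and the CCAAT box as CCAAT.
RAD54L, chr1:46247438-46247687, plus strand: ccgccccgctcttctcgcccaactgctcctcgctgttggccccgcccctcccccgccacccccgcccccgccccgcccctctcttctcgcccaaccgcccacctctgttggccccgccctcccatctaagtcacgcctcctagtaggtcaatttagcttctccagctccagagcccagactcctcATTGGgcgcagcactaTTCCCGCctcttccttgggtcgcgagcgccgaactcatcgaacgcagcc
UBE2T, chr1:202341937-202342186, minus strand: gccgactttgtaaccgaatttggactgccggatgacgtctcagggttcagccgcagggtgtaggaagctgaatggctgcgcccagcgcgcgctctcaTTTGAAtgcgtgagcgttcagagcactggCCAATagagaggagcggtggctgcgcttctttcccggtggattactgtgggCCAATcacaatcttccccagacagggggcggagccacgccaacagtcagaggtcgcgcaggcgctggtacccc
RAD9A, chr11:67391736-67391985, plus strand: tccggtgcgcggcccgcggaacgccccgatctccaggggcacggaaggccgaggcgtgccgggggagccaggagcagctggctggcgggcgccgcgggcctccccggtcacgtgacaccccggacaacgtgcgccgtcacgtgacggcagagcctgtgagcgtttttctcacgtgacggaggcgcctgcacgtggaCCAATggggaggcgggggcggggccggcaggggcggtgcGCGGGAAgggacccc
MSH3, chr5:80654402-80654651, plus strand: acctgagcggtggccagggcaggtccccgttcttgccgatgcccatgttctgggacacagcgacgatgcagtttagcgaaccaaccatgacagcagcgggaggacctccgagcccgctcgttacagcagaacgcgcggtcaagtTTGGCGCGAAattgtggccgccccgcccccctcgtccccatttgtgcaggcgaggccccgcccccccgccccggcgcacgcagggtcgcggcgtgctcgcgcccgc

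RAD54L held 1 E2F-like match and 1 CCAAT box, UBE2T 1 CHR match and 2 CCAAT boxes, RAD9A 1 E2F-like match and 1 CCAAT box, and MSH3 2 overlapping E2F-like matches. Promoter entries were found for 27 of the 32 measured genes. An E2F-like heptamer was present in 10 of these 27, against 9.51% of 27305 promoters in the table. It was present in 5 of 9 genes that fell and in 2 of 4 that rose after 24 h of LTM. The 9 that fell include BRCA1, whose window held no match. Its outermost annotated start lies far from the commonly used BRCA1 promoter. A CHR match was present in 2 of 27 (14.6% of all promoters) and a CCAAT box in 13 of 27 (33% of all promoters). The 27305 promoters include those of genes not measured here, so these shares come from unlike sets of genes and were not compared by a test. The matches describe letters in a window and were not tested as binding sites.

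Signals are given as log2 intensities after background correction and quantile normalization between the 12 arrays, and each value belongs to 1 probe, so levels are not compared between genes. The lowest detected signal lay at 4.89 to 4.97 on this scale, and 19485 to 20551 of 47230 probes were detected per array. The melanocyte lineage marker SOX10 was strong on every array (10.36 to 11.59) and MITF was detected on all 12, while MLANA, TYRP1 and S100B were detected on 0 arrays and PMEL on 4. Of the markers of other cell types, KRT1, KRT5, KRT14, CDH5, VWF, PTPRC and CD3D were detected on 0 arrays, and COL1A1 and PECAM1 on 1. At low level the fibroblast genes LUM, PDGFRB and DCN were detected on 12, 9 and 3 arrays, and the leukocyte genes CD14 and CD79A on 12 and 8. LUM read 6.80 and 6.70 on the LTM 24 h arrays, against 5.71 and 5.66 in controls, and ran from 5.41 to 6.56 on the others. PDGFRB ran from 4.48 to 6.58 over the arrays, CD14 from 5.06 to 5.77 and CD79A from 4.49 to 5.50. The part of these genes in the results below was not tested. All arrays were positions of 1 BeadChip filled in the order of the groups, so position and group cannot be told apart.

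A total of 3 arrays went against their labels in these 32 genes, and the counts of genes called are therefore given with all 12 arrays and with the 9 that remain without them. After centring each gene over the 12 arrays, array 3 labelled TFT 8 h correlated at -0.14 and -0.06 with the other two of its label but at 0.81 and 0.85 with the arrays 2 and 3 labelled LTM 8 h. The first array labelled LTM 8 h correlated at -0.17 and 0.07 with the other two of its label and at 0.82 with the second array labelled TFT 24 h. The first array labelled TFT 24 h correlated at 0.10 with the other of its label, and at 0.53 and 0.85 with the first and second TFT 8 h arrays. Among the 9 remaining arrays the 4 pairs of the same label correlated at 0.71 to 0.94. These correlations are over 32 genes on 1 shared chip and describe the arrays. The 3 arrays stay under their deposited labels wherever 12 arrays are named, and dropping them leaves TFT 24 h with 1 array, which is assumed to vary like the other groups.

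**Figure D1:**
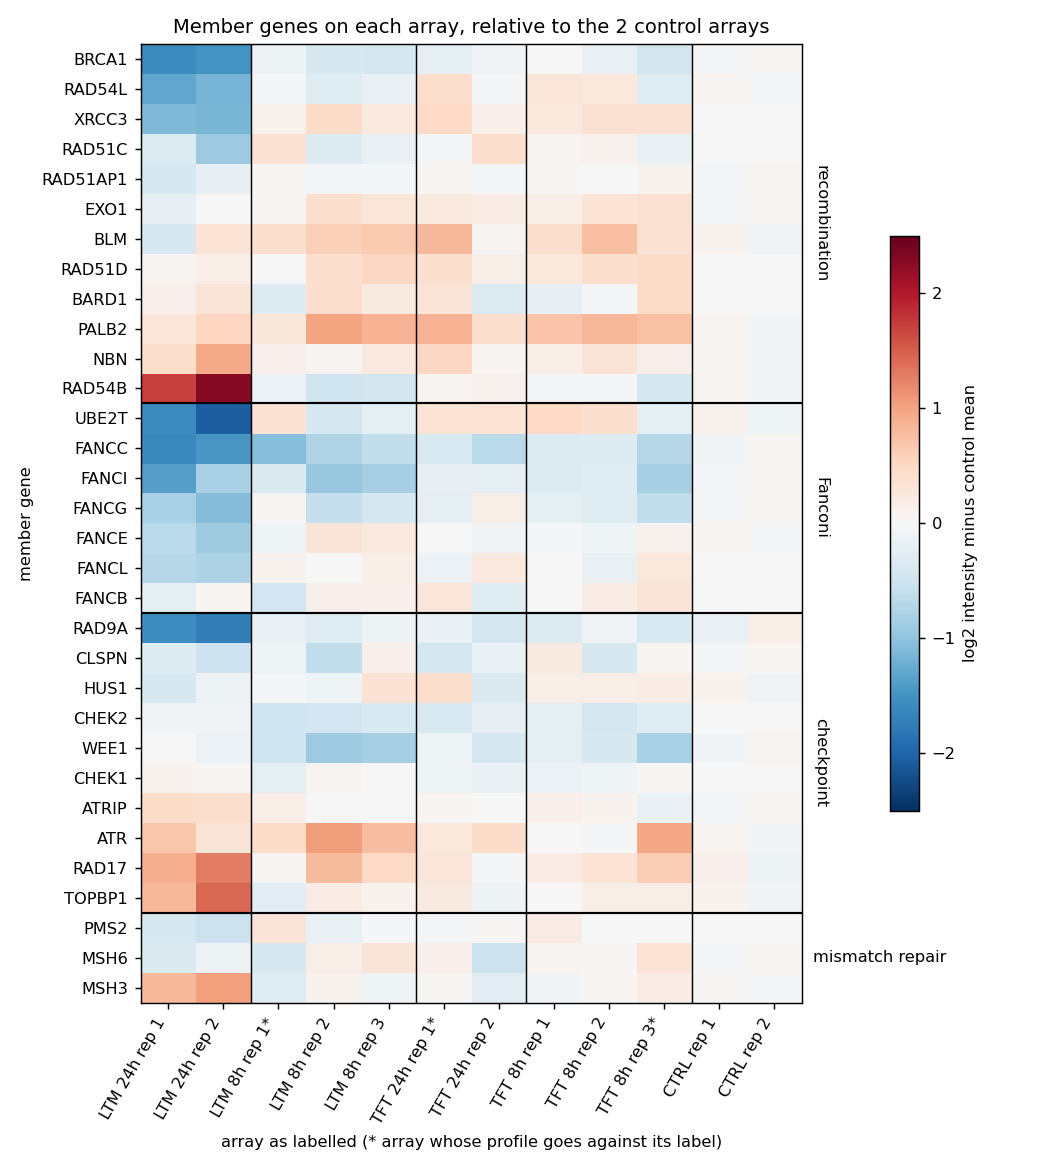
Log2 intensity of each of the 32 measured genes (rows, by subfamily) on each array (columns, as labelled), minus the mean of the 2 control arrays; blue is lower, red is higher, and asterisks mark the 3 arrays that go against their labels. The 2 LTM 24 h arrays carry the deepest colours, with UBE2T, BRCA1, FANCC and RAD9A low and RAD54B high on both.

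The first question was what each drug did to these genes relative to vehicle. After 24 h of LTM, 16 of the 32 genes passed limma's moderated test (Benjamini-Hochberg adjusted p under 0.05 over all detected probes), of which 6 rose and 10 fell. In the background of all genes 46.4% were called, 23.3% higher and 23.1% lower, so the share of members called is near that of all genes. The subfamilies had different counts: 0 of 7 Fanconi genes rose and 6 fell, 3 of 10 checkpoint genes rose and 1 fell, 2 of 12 recombination genes rose and 3 fell, and 1 of 3 mismatch repair genes rose and 0 fell. The median log2 fold change was -0.95 over the Fanconi genes, -0.07 over recombination, -0.01 over checkpoint and -0.24 over mismatch repair genes, against -0.03 over all genes. These medians were not tested against each other. In RNA from bulk cultures, fewer cells that express a gene and less RNA per cell cannot be told apart.

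The Fanconi genes that fell span the pathway. UBE2T, the ubiquitin-conjugating enzyme that acts on FANCI and FANCD2, read 9.11 and 8.65 on the LTM 24 h arrays and 11.06, 10.27 and 10.46 on the LTM 8 h arrays. Its TFT arrays read 11.04 and 11.04 at 24 h and 11.20, 11.10 and 10.47 at 8 h, and the controls 10.82 and 10.59. Both LTM 24 h arrays lay below every other array. The log2 fold change of LTM 24 h over control was -1.83 (SE 0.30, limma adjusted p = 0.000756), a signal 3.54-fold lower.

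FANCC, a subunit of the Fanconi core complex, read 5.00 and 5.18 on the LTM 24 h arrays, 5.56, 5.87 and 6.01 on the LTM 8 h arrays, 6.24 and 5.96 on the TFT 24 h arrays, 6.29, 6.29 and 5.90 on the TFT 8 h arrays and 6.55 and 6.70 in controls. All 10 drug arrays lay below both controls, and the LTM 24 h arrays lay close to the lowest detected signal. The log2 fold change at 24 h of LTM was -1.53 (SE 0.20, limma adjusted p = 0.000269). FANCI, the partner of FANCD2 that receives ubiquitin, read 7.02 and 7.59 on the LTM 24 h arrays against 8.37 and 8.43 in controls, a log2 fold change of -1.09 (SE 0.25, limma adjusted p = 0.00565). FANCG, another core complex subunit, read 9.15 and 8.88 on the LTM 24 h arrays against 9.91 and 10.01 in controls, a log2 fold change of -0.95 (SE 0.23, limma adjusted p = 0.00684). In both genes the LTM 24 h and control arrays did not overlap. For FANCI, however, LTM 24 h array 2 lay just above LTM 8 h arrays 2 and 3 (7.45 and 7.58) and array 3 labelled TFT 8 h (7.56). FANCE, which links the core complex to FANCD2, and the ligase FANCL fell by 0.79 and 0.75 on the log2 scale. The probe that represents FANCB, a core complex subunit, gave -0.11 and did not pass (limma adjusted p = 0.781), whereas its other detected probe gave -1.49 and passed (limma adjusted p = 0.00191).

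Among the recombination genes, BRCA1 and RAD54B moved in opposite directions. BRCA1, the ubiquitin ligase subunit and tumour suppressor that promotes the resection of broken ends, read 7.43 and 7.52 on the LTM 24 h arrays and 8.89, 8.61 and 8.59 on the LTM 8 h arrays. It read 8.80 and 8.95 on the TFT 24 h arrays, 9.04, 8.84 and 8.57 on the TFT 8 h arrays, and 8.98 and 9.06 in controls. The LTM 24 h arrays again lay below every other array, at a log2 fold change over control of -1.55 (SE 0.18, limma adjusted p = 0.000156). A second BRCA1 probe gave -1.61.

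RAD54B, a RAD54-related DNA translocase, read 9.62 and 10.18 on the LTM 24 h arrays and 7.75, 7.41 and 7.44 on the LTM 8 h arrays. The TFT arrays read 7.97 and 8.01 at 24 h and 7.88, 7.86 and 7.46 at 8 h, and the controls 7.98 and 7.83. The LTM 24 h arrays were the highest by a wide margin, and the log2 fold change over control was 1.99 (SE 0.22, limma adjusted p = 0.00011), a signal 3.98-fold higher. Its relative RAD54L, the principal RAD54 translocase, went the other way. RAD54L read 7.17 and 7.30 on the LTM 24 h arrays, 8.42, 8.17 and 8.31 on the LTM 8 h arrays, 8.90 and 8.42 on the TFT 24 h arrays, 8.78, 8.73 and 8.18 on the TFT 8 h arrays and 8.51 and 8.43 in controls, with a log2 fold change of LTM 24 h over control of -1.23 (SE 0.23, limma adjusted p = 0.00159).

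XRCC3, which acts in homologous recombination in a complex with RAD51C, read 6.60 and 6.57 on the LTM 24 h arrays, 7.80, 8.16 and 7.96 on the LTM 8 h arrays, 8.20 and 7.85 on the TFT 24 h arrays, 7.97, 8.09 and 8.07 on the TFT 8 h arrays and 7.71 and 7.72 in controls. All TFT and LTM 8 h arrays lay above the controls and both LTM 24 h arrays more than a log2 unit below them, at a log2 fold change of -1.13 (SE 0.17, limma adjusted p = 0.000592). NBN, the nibrin subunit of the complex that senses broken ends, rose by 0.69 (log2, SE 0.21, limma adjusted p = 0.0209). The other recombination genes did not pass on 12 arrays: PALB2, BARD1, RAD51AP1, RAD51D, EXO1, BLM and RAD51C, whose log2 fold change was -0.62 (limma adjusted p = 0.0829) by its strongest probe and 0.31 and 0.27 by 2 others that did not pass either.

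In the checkpoint, RAD9A fell while TOPBP1, RAD17 and ATRIP rose. RAD9A, a subunit of the 9-1-1 clamp that marks damaged DNA, read 5.50 and 5.31 on the LTM 24 h arrays, 6.85, 6.75 and 6.92 on the LTM 8 h arrays, 6.88 and 6.61 on the TFT 24 h arrays, 6.71, 6.95 and 6.66 on the TFT 8 h arrays and 6.87 and 7.21 in controls. The LTM 24 h arrays stood more than a log2 unit below all others, and the log2 fold change over control was -1.64 (SE 0.18, limma adjusted p = 0.000107). These LTM 24 h readings lay close to the lowest detected signal, so the size of the fall depended on the background correction. HUS1, another clamp subunit, lay near the lowest detected signal in every group (4.74 to 5.57) and did not pass.

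RAD17, which loads the 9-1-1 clamp, read 7.91 and 8.27 on the LTM 24 h arrays, 7.03, 7.79 and 7.49 on the LTM 8 h arrays, 7.31 and 6.95 on the TFT 24 h arrays, 7.18, 7.34 and 7.61 on the TFT 8 h arrays and 7.12 and 6.87 in controls. Its log2 fold change was 1.09 (SE 0.26, limma adjusted p = 0.00592), and a second probe gave 1.24. TOPBP1, which activates ATR at the clamp, read 9.93 and 10.55 on the LTM 24 h arrays, 8.85, 9.31 and 9.21 on the LTM 8 h arrays, 9.35 and 9.0 on the TFT 24 h arrays, 9.14, 9.26 and 9.28 on the TFT 8 h arrays and 9.21 and 9.03 in controls, with a log2 fold change of 1.12 (SE 0.23, limma adjusted p = 0.00298). In both genes the 2 LTM 24 h arrays were the highest of the 12. ATRIP, the partner that brings ATR to single-stranded DNA, read 9.66 and 9.63 on the LTM 24 h arrays against 9.13 and 9.25 in controls, with a log2 fold change of 0.45 (SE 0.15, limma adjusted p = 0.0366). The effector kinases CHEK1, CHEK2 and WEE1, the adaptor CLSPN and the apical kinase ATR did not pass on 12 arrays.

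The mismatch repair genes did not move as a group. MSH3, which recognises larger insertion and deletion loops, read 9.82 and 10.04 on the LTM 24 h arrays, 8.71, 9.11 and 8.91 on the LTM 8 h arrays, 9.05 and 8.75 on the TFT 24 h arrays, 8.95, 9.06 and 9.20 on the TFT 8 h arrays and 9.03 and 8.99 in controls. Both LTM 24 h arrays lay above all others, with a log2 fold change of 0.91 (SE 0.18, limma adjusted p = 0.00258). MSH6, which recognises single mismatches and small loops, read 10.86 and 11.08 on the LTM 24 h arrays, 10.82, 11.37 and 11.54 on the LTM 8 h arrays, 11.35 and 10.69 on the TFT 24 h arrays, 11.28, 11.25 and 11.56 on the TFT 8 h arrays and 11.16 and 11.27 in controls. Both LTM 24 h arrays lay below both controls, but the LTM 8 h and TFT 24 h arrays spread over a wider range than that gap. Its log2 difference at 24 h of LTM was -0.24 (95% interval -0.83 to 0.34, limma adjusted p = 0.508).

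PMS2, a mismatch repair endonuclease, read 7.12 and 6.99 on the LTM 24 h arrays, 7.84, 7.34 and 7.48 on the LTM 8 h arrays, 7.50 and 7.55 on the TFT 24 h arrays, 7.74, 7.53 and 7.54 on the TFT 8 h arrays and 7.52 and 7.53 in controls. The LTM 24 h arrays were the lowest, yet the difference of -0.47 did not pass on 12 arrays (limma adjusted p = 0.0595) and passed on 9 (limma adjusted p = 0.0132), while a second PMS2 probe gave 0.38 in the opposite direction and passed on 9 arrays (limma adjusted p = 0.0314). PMS2 has near-identical pseudogene copies, so its probes are uncertain.

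Without the 3 arrays, 20 of the 32 genes passed after 24 h of LTM, 8 higher and 12 lower, against a background of 61.3% (30.2% higher and 31.1% lower). All 16 of the earlier calls were among them with the same sign, and PALB2 (0.41), ATR (0.50), RAD51C (-0.62) and PMS2 were added. Some of the 16 calls did not pass in fits that left out 1 array. Leaving 1 array out of a group of 2 also widens the standard error. A lost call therefore does not show that the change came from that array. Over the 12 such fits the log2 fold change ran from 0.39 to 0.51 for ATRIP and from 0.44 to 0.95 for NBN. NBN did not pass without control array 1 (limma adjusted p = 0.0632), control array 2 (0.114) or LTM 24 h array 2 (0.185), and RAD17 did not pass without control array 2 (0.0521) or LTM 24 h array 2 (0.0611). FANCG did not pass without LTM 24 h array 2 (0.0623) and FANCI did not pass without LTM 24 h array 1 (0.058). ATRIP did not pass without either control (0.177 and 0.0883), without LTM 8 h array 3 (0.0505) or without either LTM 24 h array (0.11 and 0.1).

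**Figure D2:**
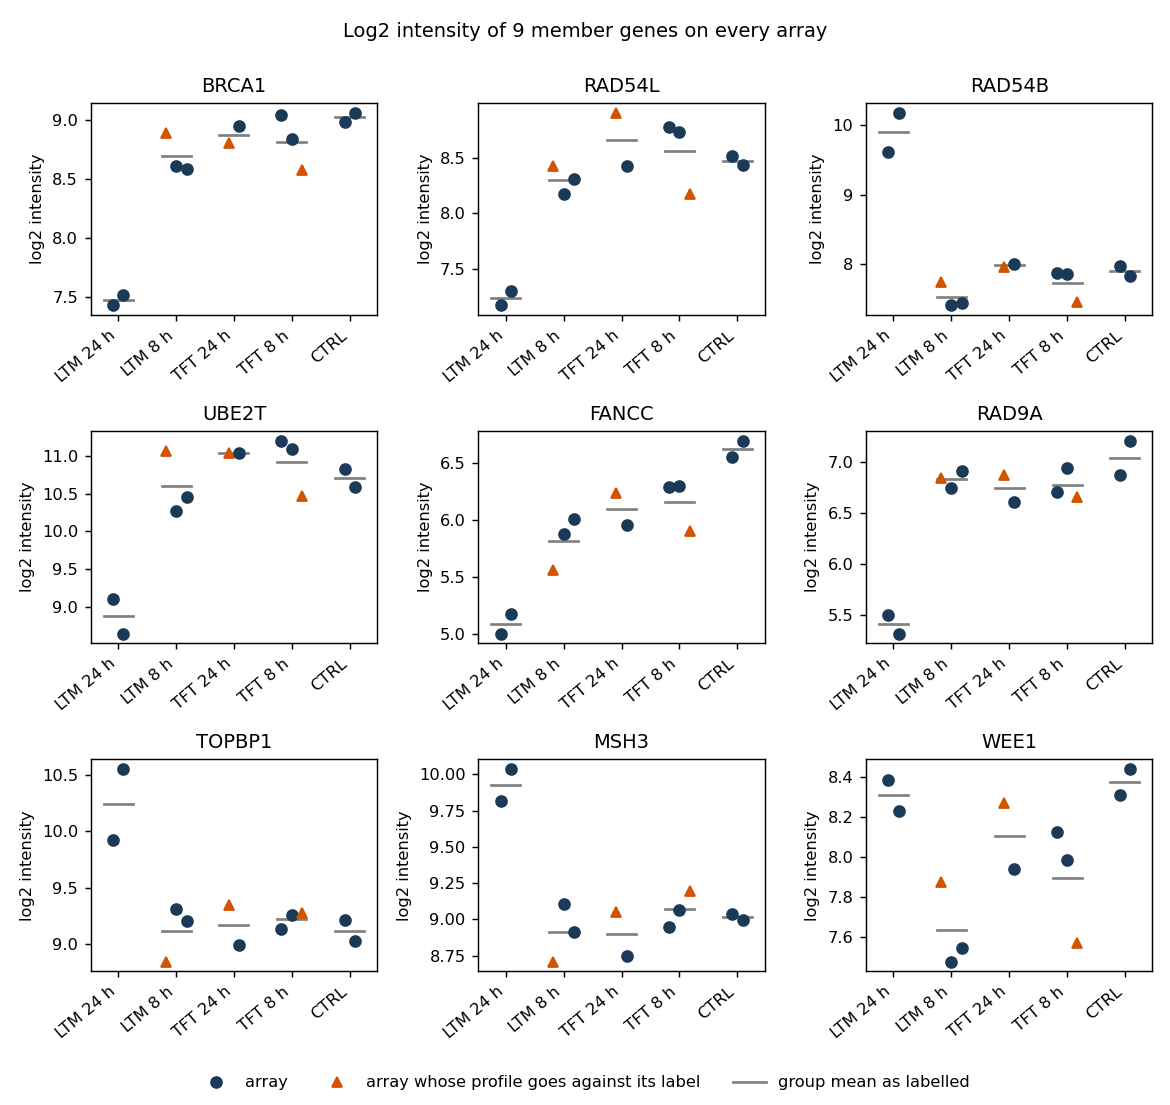
Log2 intensity of 9 genes on every array, with groups along the horizontal axis in the order LTM 24 h, LTM 8 h, TFT 24 h, TFT 8 h and control; points are arrays, orange triangles are the 3 arrays that go against their labels, and grey lines are group means. The LTM 24 h arrays of UBE2T, BRCA1 and RAD9A sit below all other points and those of RAD54B above them.

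At 8 h of LTM, 0 of the 32 genes passed on 12 arrays by limma, as in the background, where 0% of genes were called. At an unadjusted p under 0.05 there were 6 of 32 members, 2 of them higher, and 1970 of 12131 genes. Under trended and robust moderation the count of members was also 0. On 9 arrays 10 members passed, 4 higher and 6 lower, against a background of 34.1% (17.3% higher and 16.8% lower). The genes that rose on 9 arrays were PALB2, the bridge between BRCA1 and BRCA2, with a log2 fold change of 0.93 (SE 0.14, limma adjusted p = 0.000918), ATR at 0.91, RAD17 at 0.64 and RAD51D, a recombination gene, at 0.47. Those that fell on 9 arrays were FANCI at -0.89, WEE1, the kinase that restrains CDK1, at -0.87, FANCC at -0.68, FANCG at -0.49, CHEK2 at -0.43 and BRCA1 at -0.42. Leaving out the first array labelled LTM 8 h alone gave 4 calls, 1 higher and 3 lower. The share of all genes called in that fit was not counted, so these 4 calls have no background beside them. The count of 4 was the highest among the fits that each left out 1 array, and its cause was not tested.

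PALB2 and WEE1 were chosen after their values were seen and are given on each array. PALB2 read 7.55 and 7.79 on the LTM 24 h arrays, 7.53, 8.24 and 8.12 on the LTM 8 h arrays, 8.12 and 7.68 on the TFT 24 h arrays, 7.97, 8.09 and 8.00 on the TFT 8 h arrays and 7.33 and 7.18 in controls. Every drug array lay above both controls, and the lowest was the first array labelled LTM 8 h. Array 3 labelled TFT 8 h lay between the other arrays of its label. WEE1 read 8.39 and 8.23 on the LTM 24 h arrays, 7.87, 7.48 and 7.54 on the LTM 8 h arrays, 8.27 and 7.94 on the TFT 24 h arrays, 8.13, 7.98 and 7.57 on the TFT 8 h arrays and 8.31 and 8.44 in controls. The low readings under 7.6 came from LTM 8 h arrays 2 and 3 and array 3 labelled TFT 8 h.

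Few of these genes passed in cells given TFT. At 8 h, 0 of 32 passed by limma on 12 arrays (background 0%), with 5 at an unadjusted p under 0.05 against 1116 of all genes. On 9 arrays 1 passed, PALB2, which rose by 0.78 (log2, SE 0.14, limma adjusted p = 0.0327), against a background of 1.97% (1.07% higher and 0.899% lower). At 24 h, 0 of 32 passed on 12 arrays (background 0%) and on 9 arrays (background 0.47%, with 0.437% higher and 0.033% lower). At an unadjusted p under 0.05 on 12 arrays there were 2 members, PALB2 with a log2 difference of 0.65 (95% interval 0.13 to 1.17) and FANCC with one of -0.52 (-0.97 to -0.08), and 555 of all genes. Trended and robust moderation gave 0 members at both times. Over the 32 genes the log2 differences ran from -0.52 to 0.65 at 24 h and from -0.49 (FANCI) to 0.77 (PALB2) at 8 h, and at 24 h their 95% intervals lay within -0.97 and 1.17.

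**Figure D3:**
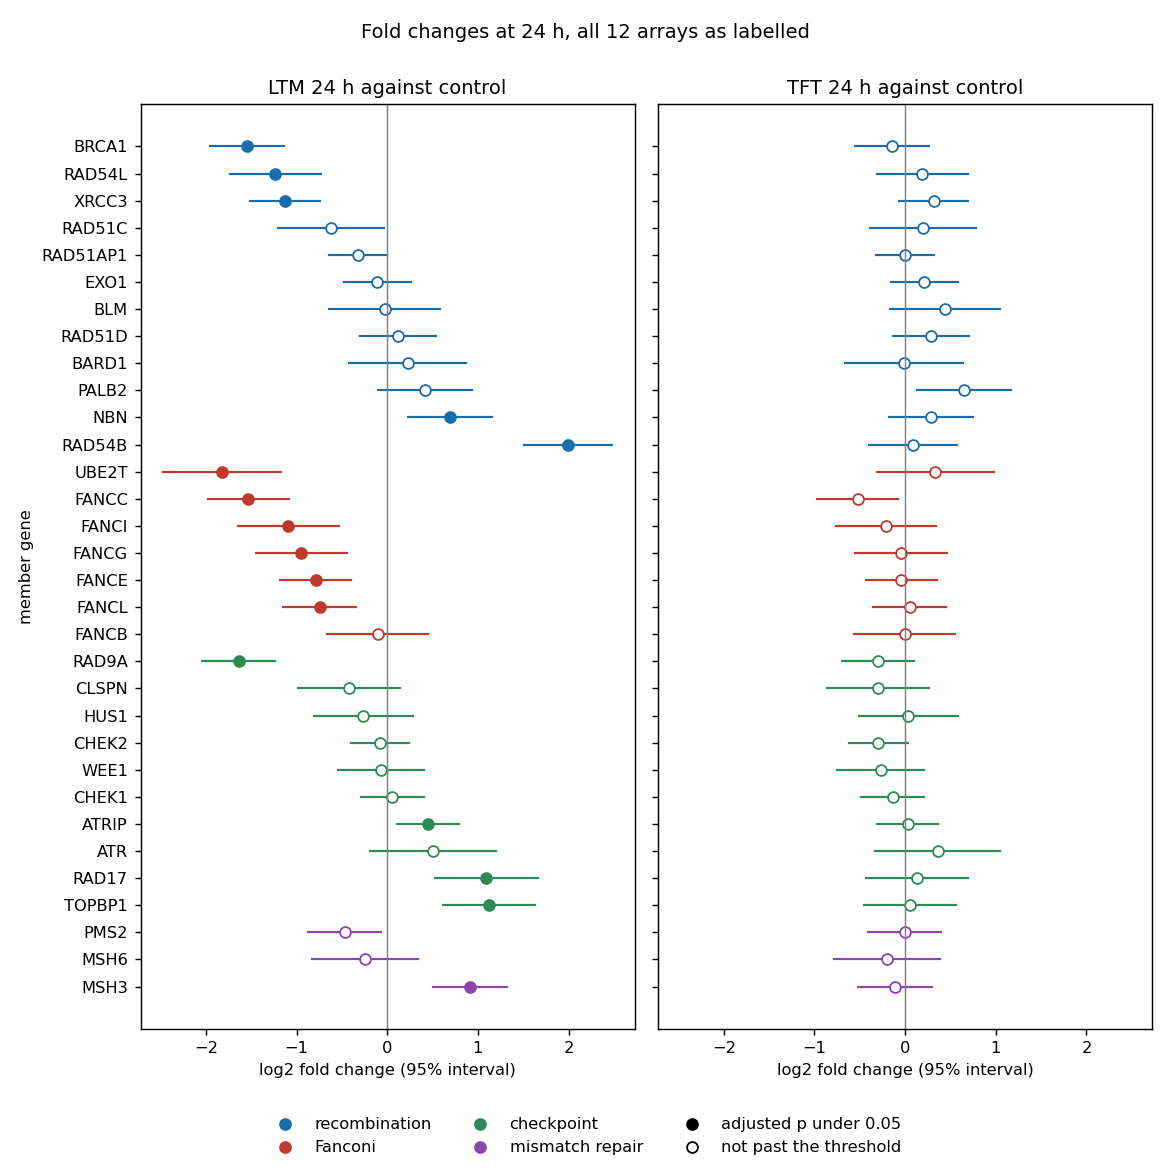
Log2 fold change over control (horizontal axis) at 24 h of each of the 32 genes (vertical axis, by subfamily) on 12 arrays, for LTM (left) and TFT (right); bars are 95% confidence intervals from the limma fit, and filled points have an adjusted p under 0.05. Filled points appear for 16 genes in the LTM 24 h panel and for 0 genes in the TFT 24 h panel.

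The second question was whether the drugs differed from each other at the same time point. After 24 h, 16 of 32 genes differed between LTM and TFT by limma on 12 arrays, 5 higher and 11 lower under LTM, against a background of 46.3% (22.4% higher and 23.8% lower). The Fanconi subfamily had 0 of 7 genes higher and 6 lower, recombination 1 of 12 higher and 4 lower, the checkpoint 3 of 10 higher and 1 lower, and mismatch repair 1 of 3 higher and 0 lower. The median log2 difference was -0.88 over the Fanconi genes, against -0.04 over all genes. This comparison shares its LTM arrays with that of LTM 24 h and control, so they are not independent.

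UBE2T was the member furthest apart between the drugs, at a log2 difference of -2.16 (SE 0.30, limma adjusted p = 0.000321), with LTM 24 h arrays at 9.11 and 8.65 and both TFT 24 h arrays at 11.04. RAD54B stood at 1.91 (SE 0.22, limma adjusted p = 0.00015), XRCC3 at -1.44 (SE 0.17), RAD54L at -1.42 (SE 0.23) and BRCA1 at -1.40 (SE 0.18). Of the checkpoint genes RAD9A stood at -1.34, TOPBP1 at 1.06, RAD17 at 0.96 and ATRIP at 0.42. Of the other Fanconi genes FANCC stood at -1.01, FANCG at -0.90, FANCI at -0.88, FANCL at -0.80 and FANCE at -0.75. MSH3 stood at 1.03 (SE 0.18, limma adjusted p = 0.00137). MSH6 gave -0.04 (95% interval -0.63 to 0.54) and PMS2 -0.47 (-0.87 to -0.06), and neither passed after adjustment with all arrays. On 9 arrays, which leave TFT 24 h with 1 array, the log2 difference was 1.18 for MSH3 and -0.49 for PMS2. That of MSH6 changed sign, to 0.29.

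RAD51C, the partner of XRCC3, read 9.78 and 9.20 on the LTM 24 h arrays, 10.48, 9.79 and 9.92 on the LTM 8 h arrays, 10.06 and 10.55 on the TFT 24 h arrays, 10.17, 10.22 and 9.95 on the TFT 8 h arrays and 10.10 and 10.12 in controls. Its LTM 24 h and TFT 24 h arrays did not overlap, and the log2 difference was -0.82 (SE 0.27, limma adjusted p = 0.0294), but its other 2 probes gave -0.21 and -0.26 and did not pass. Conversely RAD51D did not pass by its strongest probe, while another of its probes gave -0.77 and passed (limma adjusted p = 0.00426).

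Without the 3 arrays 19 of 32 genes differed between the drugs at 24 h, 7 higher and 12 lower under LTM (background 56.4%, with 27.3% higher and 29.1% lower), including all 16 with the same sign. Several calls did not pass when 1 array was left out, which in groups of 2 also widens the standard error. The estimates moved less for ATRIP (0.41 to 0.44 over the 12 such fits) than for RAD51C (-1.11 to -0.53). Without TFT 24 h array 2 the adjusted p was 0.203 for RAD51C, 0.08 for FANCG, 0.0684 for FANCI, 0.0568 for FANCL and 0.0916 for RAD17. Without LTM 24 h array 2 it was 0.232 for RAD51C, 0.0561 for FANCE, 0.076 for FANCG and 0.102 for RAD17. FANCI did not pass without TFT 24 h array 1 (0.0692) or LTM 24 h array 1 (0.147). ATRIP, whose adjusted p was 0.0478 on 12 arrays, did not pass in 10 of 12 fits that left out 1 array, with values up to 0.152.

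At 8 h, 0 of 32 genes differed between the drugs by limma on 12 arrays (background 0%), with 0 members and 340 of all genes at an unadjusted p under 0.05 and 0 members under trended and robust moderation. The log2 differences ran from -0.35 (FANCC) to 0.45 (ATR). On 9 arrays 6 members differed, 2 higher and 4 lower under LTM, against a background of 30.9% (16.1% higher and 14.8% lower). ATR stood at 0.92 (limma adjusted p = 0.00231) and BARD1, the partner of BRCA1, at 0.44, with UBE2T at -0.78, FANCI at -0.56, WEE1 at -0.55 and RAD54L at -0.52.

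The difference between the drugs was itself compared between the times as an interaction in the same fit. It passed by limma for 11 of 32 genes on 12 arrays, 3 higher and 8 lower at 24 h, against a background of 26.7% (12.8% higher and 13.9% lower). UBE2T had an interaction of -1.84 (SE 0.38, limma adjusted p = 0.00713) and RAD54B one of 2.11 (SE 0.29, limma adjusted p = 0.00134). On 9 arrays 13 passed, 4 higher and 9 lower, against a background of 33% (15.5% higher and 17.5% lower). Without LTM 24 h array 2 fewer members passed, and the share of all genes called in that fit was not counted.

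ATR was also chosen after its values were seen and is given on each array. ATR read 5.89 and 5.53 on the LTM 24 h arrays, 5.67, 6.25 and 5.98 on the LTM 8 h arrays, 5.47 and 5.66 on the TFT 24 h arrays, 5.21, 5.17 and 6.18 on the TFT 8 h arrays and 5.28 and 5.13 in controls. Array 3 labelled TFT 8 h was within the range of LTM 8 h arrays 2 and 3, and the first array labelled LTM 8 h was level with the TFT 24 h array 2.

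**Figure D4:**
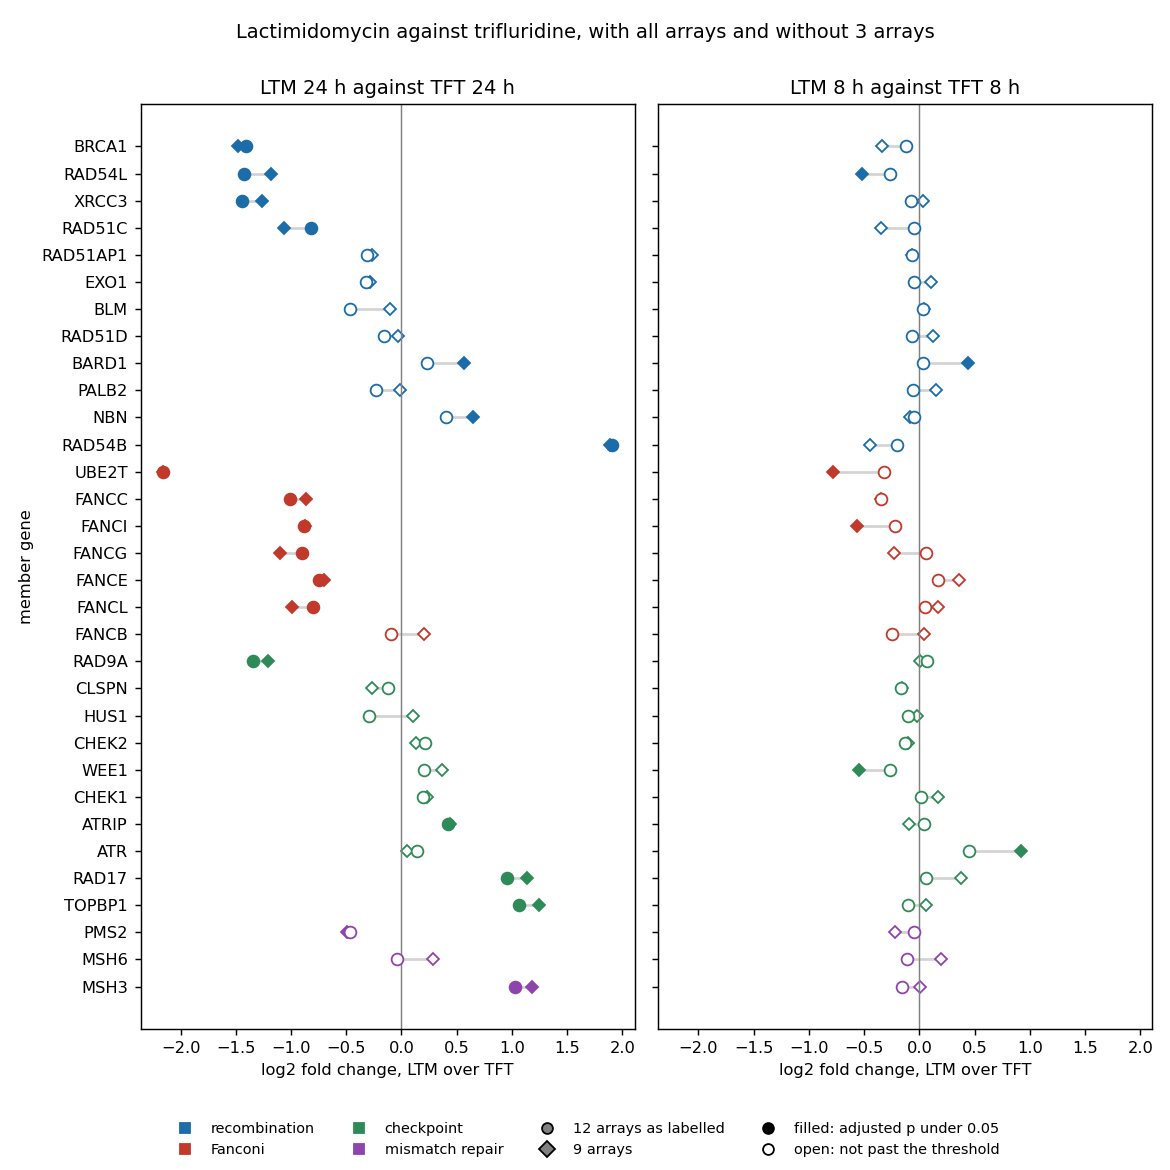
Log2 fold change of LTM over TFT (horizontal axis) for the 32 genes (vertical axis) at 24 h (left) and 8 h (right); circles use 12 arrays as labelled, diamonds 9 arrays, filled symbols have an adjusted p under 0.05 and colours give the subfamily. At 24 h, 16 circles and 19 diamonds are filled, and at 8 h 0 circles and 6 diamonds.

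Other genes of the same pathways were taken from a list of 35, of which 31 were measured. After 24 h of LTM 10 of the 31 rose and 11 fell on 12 arrays, and 11 rose and 12 fell on 9 arrays; over all genes 46.4% were called on 12 arrays (23.3% higher and 23.1% lower) and 61.3% on 9. The furthest moved were CENPX (log2 fold change -2.21) and FAAP20 (-1.90), which work with the Fanconi core complex, PKMYT1 (-2.01), a kinase that restrains CDK1 beside WEE1, and UIMC1 (1.91), which brings the BRCA1-A complex to ubiquitin. Of 5 measured end joining genes 3 rose (LIG4, POLM and POLL) and 0 fell on 12 arrays, and 4 rose and 1 fell on 9. Of 12 proliferation genes 0 rose and 8 fell on 12 arrays, and 0 rose and 10 fell on 9. The log2 fold change was -1.12 for MKI67 and -1.37 for CCNA2. CCNA2 read 9.70 and 9.62 on the LTM 24 h arrays and was as low, 9.63 and 9.71, on LTM 8 h arrays 2 and 3. On those LTM 8 h arrays UBE2T, FANCC, FANCG and FANCI lay below both controls, while FANCE, FANCL and FANCB lay above both. The part of the proliferation genes in the changes was not tested. At 8 h of LTM, 0 of the 48 genes of these 3 lists passed by limma on 12 arrays (9 at an unadjusted p under 0.05). On 9 arrays 9 other pathway genes rose and 4 fell, 1 end joining gene rose and 0 fell, and 0 proliferation genes rose and 4 fell, against a background of 34.1%. In TFT 0 of the 48 genes passed on 12 arrays at either time (2 at 24 h and 5 at 8 h at an unadjusted p under 0.05), and on 9 arrays 0 passed at 24 h and 1 proliferation gene fell at 8 h.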

How the data were processed

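RNA of the WM35 cell line was measured on 12 Illumina 1-colour arrays, each from 300 ng of biotin-labelled RNA. The scanner table held a linear intensity per probe that the authors obtained with GenomeStudio, as the submitters' processing notes name it (version and settings not given in the sources used here); it was already background-subtracted, since 27.3% to 29.3% of values were below 0. A detection p-value per probe was deposited beside it, per the file headers. A second deposited table gave linear intensity values for 38223 probes, with an unknown normalization. Its columns followed their own array by rank (Spearman 0.969 to 0.978), with medians of 23.8 and 23.5 (LTM 24 h), 24.7, 24.5 and 24.5 (LTM 8 h), 24.2 and 25.0 (the TFT arrays at 24 h), 25.2, 25.0 and 24.0 (those at 8 h) and 24.3 and 24.4 (controls); genes were not centred, and it served as an alternative.

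Intensities as deposited were corrected with limma 3.58.1 (R 4.3.3; neqc, background from the detection p-values, offset 16), quantile normalized and put on the log2 scale. Probes detected on 2 or more arrays were kept (24325). Of the probes of the processed table, 27004 had 1 symbol in the platform annotation, 4 had several, and 11215 were not listed; 26970 matched RefSeq genes by Entrez identifier and 0 symbols changed. Of those kept 15954 had 1 symbol and 8371 none. A gene is its detected probe of highest mean intensity, and other probes are given alone. One lmFit of 5 group means over 12 arrays (7 residual degrees of freedom) with eBayes gave two-sided moderated tests, adjusted by Benjamini-Hochberg over all kept probes at 0.05. The number of arrays limits precision. The code was tested on simulated data. The members and lists were chosen with earlier results of these data known, and so was the omission of 3 arrays. Full statistics were given to at most 4 called members of a subfamily with the largest change, per-array values also to all mismatch repair genes, and other genes were named up to 4 a list; RAD51C, WEE1, HUS1, ATR and PALB2 were shown by array after their values were seen. Alternatives changed the background correction, scaling, table, filter, moderation, probe set, samples and block.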

Additional observations from a re-analysis of the deposited data

Results flagged for a closer look

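The difference between LTM and TFT at 24 h differed from that at 8 h in 11 of the 32 genes by an interaction contrast of the limma fit (adjusted p under 0.05, 3 higher and 8 lower at 24 h, against 26.7% of all genes). The interaction, in log2 units, was 2.11 for RAD54B, 1.19 for MSH3 and 1.17 for TOPBP1. It was -1.84 for UBE2T, -1.41 for RAD9A, -1.37 for XRCC3, -1.28 for BRCA1 and -1.16 for RAD54L. It was -0.97 for FANCG, -0.91 for FANCE and -0.85 for FANCL. On 9 arrays 13 genes passed, 4 higher and 9 lower (33% of all genes), including all 11 with the same sign, and those of RAD54B, MSH3, TOPBP1 and UBE2T were 2.33, 1.17, 1.18 and -1.38. The 8 h term contains 2 of the 3 arrays that go against their labels.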

How the results depend on the processing

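Of 32 single-gene calls for LTM 24 h (against control and against TFT 24 h), 20 kept their direction and their side of the threshold in all 10 other settings and 12 fits that each left out 1 array, and 0 reversed. The number of members called for LTM 24 h against control was 12 to 18 when 1 array was left out and 15 to 20 otherwise, and against TFT 24 h 11 to 17 and 15 to 19. At LTM 8 h against control it was 10 on 9 arrays, and 0 to 4 when 1 array was left out. On 9 arrays it was 1 for TFT 8 h against control and 6 for LTM 8 h against TFT 8 h. The interaction gave 6 to 12 calls when 1 array was left out, with 6 without LTM 24 h array 2; the cause was not tested. For the fits that left out 1 array the share of all genes called was not counted. Their counts of members therefore cannot be set against a background. Of 21 same-numbered pairs of arrays, 4 had deviations from their group means that correlated above 0.1 (range -0.62 to 0.69). This cannot decide whether replicate numbers pair the arrays. Some group means include arrays that go against their labels, and in groups of 2 arrays the deviations mirror each other. With the replicate number as a block the counts were 16 (LTM 24 h against control), 15 (against TFT 24 h) and 11 (interaction). ATRIP did not pass against control under median scaling (limma adjusted p = 0.0688). Against TFT 24 h it did not pass under median scaling (0.0857), with the processed table (0.0523), with trended and robust moderation (0.0609), with the replicate block (0.0584) or with only the groups compared (0.0938), and RAD51C did not pass against TFT 24 h with no detection filter (0.0592). Median scaling put the median of all genes for LTM 24 h against TFT 24 h at -0.14, against -0.04. FANCC and RAD9A, whose LTM 24 h signals lay near background, fell further against control without the normexp correction (-2.20 and -2.13).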
